A study of Mus musculus with 21 samples.

Results

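Isolated CpGs that read as unmethylated although the DNA around them was methylated were looked at in mouse sperm. There were 115 such CpGs among 15119333 listed autosomal CpGs. They were chosen by their measured values in a bisulfite library of nucleosome-associated DNA from C57BL/6 sperm. Each had 10 to 19 reads, no more than 2 listed CpGs in the window reaching 100 bp to either side (the CpG itself counted), under 20% of its reads methylated, and surroundings with over 80% of their reads methylated. The surroundings are the listed CpGs more than 100 and up to 1000 bp away, with at least 10 reads in all. CpGs that met the same conditions but were over 80% methylated themselves, 28771 in number, are the set they are compared with.

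The series holds 21 samples of sperm and round spermatids, and 1 of them, the bisulfite library, was analysed; the other 20 samples were not analysed here. Motile sperm had been enriched by swim-up, and mononucleosomes had been released with micrococcal nuclease (MNase), which cuts linker DNA and spares DNA wrapped on histones. The library is thus meant to enrich the part of the sperm genome that is still wrapped around histones, in cells where protamines have replaced most of them. How strong that enrichment is was not measured here, so a listed CpG is not shown to lie on a histone. With 1 library there is no biological replicate, and no p-value is given. Intervals of shares and levels are 95% Wilson binomial intervals that cover counting error only. Intervals of a difference and of the coverage ratio are not of this kind, but they too cover counting error only. Reads that cover several CpGs, and PCR copies, make all of them too narrow.

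In mammals, cytosine in CpG is methylated by DNA methyltransferases across most of the genome, and CpG-dense islands are the main part that stays free of it. A CpG that stands alone usually carries the methylation of the DNA around it. Bound transcription factors are known to keep short, CpG-poor stretches at low methylation in embryonic stem cells and other cell types. Methylated cytosine also mutates to thymine more easily than unmethylated cytosine, and bisulfite reads show an unmethylated cytosine and a thymine in the DNA by the same letter.

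Unmethylated lone CpGs were a small minority of the lone CpGs in methylated surroundings. Of 36835 lone CpGs in methylated surroundings, 0.312% were under 20% methylated (0.260 to 0.375) and 78.1% were over 80% methylated (77.7 to 78.5). The other 7949 lay between. Among all 290700 autosomal CpGs with 10 to 19 reads, whatever their density and surroundings, 45.8% were under 20% methylated. These shares follow from the selection and are given as a description.

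The number of lone CpGs fell with each step in level down to 10%. From 90% up to 100% there were 25916 lone CpGs, from 50% up to under 60% 792, from 20% up to under 30% 121, from 10% up to under 20% 50, and under 10% 65. At these depths a level can take few values, and 1 methylated read is 10% of 10 reads but under 10% of 11, so the lowest steps are uneven.

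**Figure D1:**
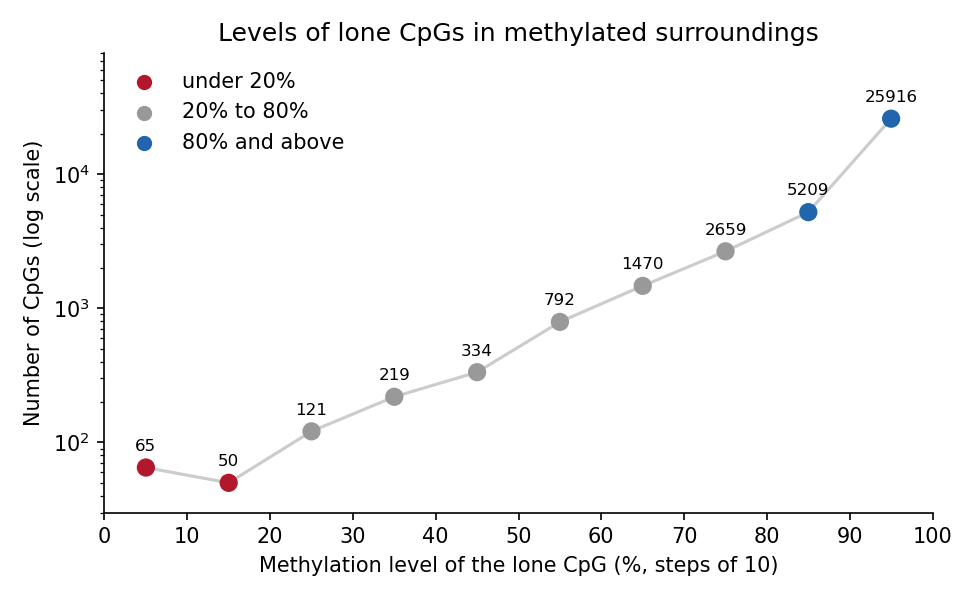
Number of lone CpGs in methylated surroundings (vertical axis, log scale) in steps of 10 percentage points of their own methylation level (horizontal axis). Each point is labelled with its count; the red points under 20% are the 65 and 50 unmethylated lone CpGs, against 25916 CpGs at 90% or above.

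Most lone CpGs of low methylation lay elsewhere. Of 841 lone CpGs under 20% with enough reads in their surroundings, 439 (52.2%) had surroundings that were also under 20%, 287 had surroundings from 20% to 80%, and the 115 described here made up 13.7%. Where the surroundings were under 20%, 38.7% of the 1133 lone CpGs were unmethylated.

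Among the 115, 28 CpGs had 0 methylated reads, 51 had 1, 33 had 2 and 3 had 3. Their depth had a median of 12 reads (mean 12.4 ± 2.43, SD over 115 CpGs), against a median of 11 reads (mean 11.2 ± 1.56, SD) in the methylated lone CpGs. With 15 or more reads there were 15.7% of the unmethylated and 4.71% of the methylated lone CpGs. A single level is imprecise at this depth. The upper bound of the interval was under 20% for 7 of the 115, and under 50% for all 115. The second count was fixed by the selection, since the highest upper bound it allows is 47.7%, for 2 of 11 reads. These intervals use the reads by which the CpGs were chosen, and do not allow for that choice.

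At the edges of the selection, the highest level of an unmethylated lone CpG was 18.8%, and 51 lone CpGs lay just outside at exactly 20%. The surroundings of 28 of the 115 were between 80% and 85% methylated, and a further 27 unmethylated lone CpGs had surroundings over 75% and up to 80%. There were 21 unmethylated lone CpGs with 10 reads, and 67 of 32340 lone CpGs with 9 reads were under 20%. There were 5 with 19 reads, and 2 of 61 lone CpGs with 20 reads were under 20%. With 3 listed CpGs within 100 bp in place of 1 or 2, 61 of 20501 CpGs were under 20% (0.298%).

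The CpGs with the most reads and no methylated read show what the selection found. Positions are on the mm9 build as the deposited table gives them, and the table does not say whether they count from 0 or 1. No sequence or gene annotation on mm9 was used, so no gene, exon or intron is assigned to them.

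On chromosome 2 at 170143098, 0 of 19 reads were methylated (0 to 16.8%). Its surroundings had 45 of 56 reads methylated (80.4%), just inside the selection, and the level between 1000 and 2000 bp away was 36.2%. This CpG thus lay near less methylated DNA.

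On chromosome 3 at 80061891, 0 of 19 reads were methylated, against 18 of 20 reads in its surroundings (90%). The level between 1000 and 2000 bp away was 91.7%. No other CpG was listed within 100 bp, so the unmethylated CpG stood alone in methylated DNA on both scales. Its surroundings averaged 2 reads per listed CpG. Its own depth was 9.5 times that mean, the highest such ratio among the 115.

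On chromosome 8 at 126572618, 0 of 18 reads were methylated (0 to 17.6%), against 33 of 35 in its surroundings (94.3%) and 93.4% between 1000 and 2000 bp away. Here too, no other CpG was listed within 100 bp.

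On chromosome 7, 2 positions belonged to this list. At 68120752, 0 of 17 reads were methylated, against 75 of 90 in the surroundings (83.3%) and 60% between 1000 and 2000 bp away. At 6996835, 0 of 16 reads were methylated, against 42 of 50 in the surroundings (84%) and 11 of 16 at a CpG 10 bp away (68.8%). In that pair both CpGs had the same depth, and 0 methylated reads stood beside 11. The level between 1000 and 2000 bp from 6996835 was 63.1%.

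The list went on with chromosome 12 at 6419779 (0 of 17 reads, surroundings 10 of 11), chromosome 8 at 62401243 (0 of 16, surroundings 16 of 19), chromosome 1 at 137033356 (0 of 14, surroundings 42 of 48), chromosome 4 at 39862723 (0 of 14, surroundings 24 of 29) and chromosome 9 at 23645677 (0 of 14, surroundings 19 of 21). In the same order, the level between 1000 and 2000 bp away was 100%, 33.3%, 85%, 93.3% and 78.6%. These levels rest on 8, 6, 60, 15 and 14 reads. Over all 10 the level of the surroundings ranged from 80.4% to 94.3%.

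The surroundings of all 115 were between 80.4% and 100% methylated, with a median of 90% and quartiles of 85.1% and 94.1%. The median around methylated lone CpGs was 92.7%. In 9 of the 115, every read of the surroundings was methylated, and in 55 the level was over 90%. The best covered surroundings over 95%, chromosome 18 left out, lay around a CpG on chromosome 12 at 113962668, with 69 of 72 reads methylated (95.8%), against 0 of 10 at the CpG itself. Farther from it the level was low, at 16.4% from 1000 to 2000 bp and 35.8% from 2000 to 5000 bp. Next came chromosome 1 at 114167509, with 54 of 55 in the surroundings and 2 of 11 at the CpG, and chromosome 1 at 74184327, with 44 of 46 and 0 of 10. On chromosome 4 at 91272068 the surroundings had 40 of 42 and the CpG 1 of 11, and on chromosome 5 at 131375442 the surroundings had 37 of 38 and the CpG 2 of 11. From 1000 to 2000 bp the CpGs named after that on chromosome 12 had, in order, 100%, 91.3%, 100% and 95.8%. These levels rest on 7, 69, 9 and 24 reads.

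The level of the CpG next to an unmethylated lone CpG was not used in the selection. Of the 115, 63 had another listed CpG within 100 bp, and this neighbour was methylated at a lower level than the neighbours of methylated lone CpGs. Both CpGs of such a pair can lie on the same reads. Pooled over neighbours of up to 19 reads, 203 of 374 reads were methylated (54.3%, 49.2 to 59.3, 61 neighbours), against 92.7% (92.5 to 92.8, 17282 neighbours) beside methylated lone CpGs. With all neighbours counted the level was 62.5% (58.3 to 66.6), against 92.6%, because a single neighbour with 99 reads, 87 of them methylated, holds many of the reads; it lies 22 bp from the CpG on chromosome 12 at 88890826, and without it the level was 56.7%. Neighbours of lone CpGs of a level from 20% to 80% lay between both, at 82.2% (81.7 to 82.7).

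Most neighbours were neither unmethylated nor fully methylated. Of the 32 neighbours with 5 or more reads, 3 were under 20% (9.38%, 3.24 to 24.2), 23 lay from 20% to 80% and 6 were over 80% (18.8%, 8.89 to 35.3). Beside methylated lone CpGs, 0.103% of 10705 such neighbours were under 20% and 85.5% were over 80%. Over the neighbours of all lone CpGs together, 0.299% were under 20% and 81% over 80%. The mean level of these neighbours was 52.4% ± 27.3 beside unmethylated lone CpGs (SD over 32 neighbours) and 92.8% ± 11.8 beside methylated ones (SD over 10705 neighbours).

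The course of the neighbour's level with distance turned on which neighbours were counted. Among neighbours of up to 19 reads, a limit set after the values were seen, the pooled level was 44.7% at 1 to 25 bp (36.5 to 53.2, 14 neighbours), 50% at 26 to 50 bp (40.1 to 59.9, 15 neighbours), 63.4% at 51 to 75 bp (52.6 to 73.0, 18 neighbours) and 68.2% at 76 to 100 bp (56.2 to 78.2, 14 neighbours). The intervals of adjoining steps overlap, and those of the first and last steps do not. With all neighbours the levels were 63.2% (56.8 to 69.2), 58.5% (50.4 to 66.2), 63.4% and 68.2% (56.2 to 78.2) in the same steps, so the nearest step was not the lowest and all 4 intervals overlap. Beside methylated lone CpGs the level fell with distance, with 94.2% at 1 to 25 bp and 90.6% at 76 to 100 bp.

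**Figure D2:**
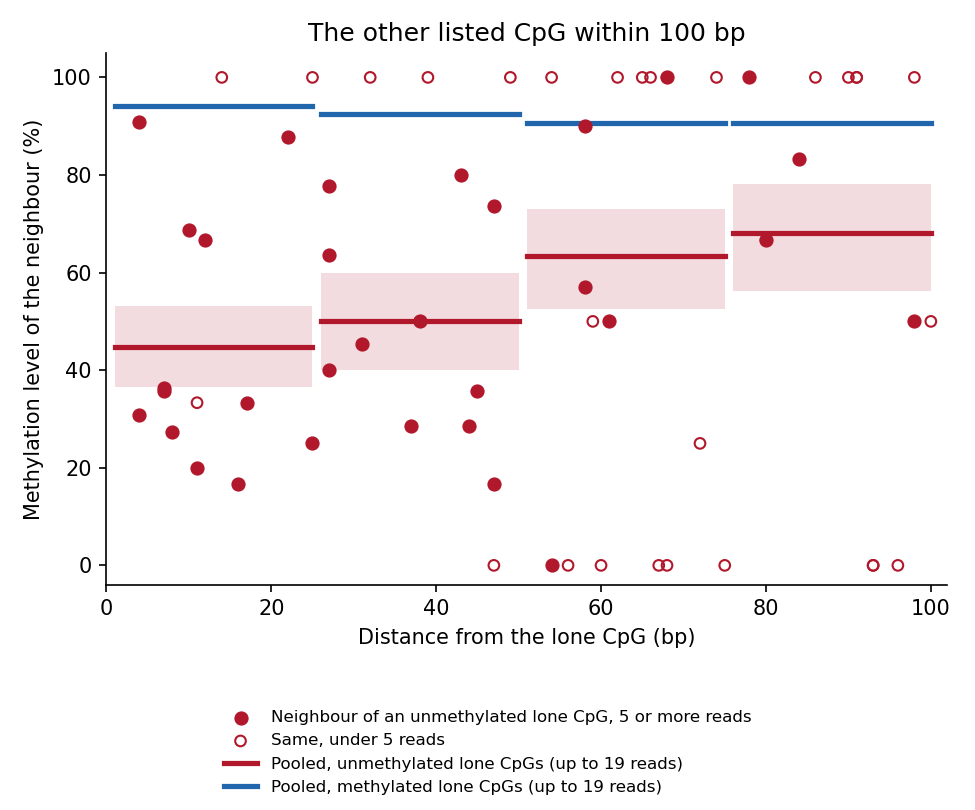
Methylation level of the other listed CpG within 100 bp (vertical axis, percent) by its distance from the lone CpG (horizontal axis, bp). Red points are the 63 neighbours of unmethylated lone CpGs, filled with 5 or more reads and open with fewer; bars are pooled levels of neighbours of up to 19 reads with their 95% Wilson intervals shaded, for unmethylated (red) and methylated (blue) lone CpGs. The red bars lie at 44.7% to 68.2% and the blue ones above 90%.

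Close pairs show how sharp the change can be. There were 11 unmethylated lone CpGs with a neighbour of 5 to 19 reads within 25 bp. The limit of 19 reads, set after the values were seen, leaves out the CpG on chromosome 12 at 88890826. It had 1 of 10 reads methylated, against 87 of 99 at its neighbour 22 bp away. The reads of the 11 lone CpGs were methylated at 10.4% (14 of 135) and those of their neighbours at 43.2% (54 of 125). The neighbour's level was above that of the lone CpG in each of the 11, by 8.33 to 81.8 percentage points with a median of 19.7; since the lone CpGs were chosen for low levels, that direction comes in part with the selection.

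The widest gap was on chromosome 9 at 107978822, where 1 of 11 reads was methylated, against 10 of 11 at a CpG 4 bp away. Some gaps were narrow. On chromosome 7 at 52082356, 2 of 12 reads were methylated, against 3 of 12 at a CpG 25 bp away. On chromosome 11 at 54676505, 1 of 12 was methylated, against 2 of 10 at 11 bp. In these last pairs both CpGs were low.

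Further unmethylated lone CpGs had a well covered neighbour that was mostly methylated. On chromosome 1 at 90147468, 1 of 10 reads was methylated, against 13 of 13 at 68 bp. On chromosome 3 at 105277509, 0 of 10 were methylated, against 9 of 10 at 58 bp. On chromosome 5 at 15006767, 2 of 19 were methylated, against 39 of 53 at 47 bp (73.6%).

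Among neighbours with 5 or more reads, the 3 that were themselves under 20% had few reads. They are named because they are so few, with their values known. They lay beside the CpGs on chromosome 2 at 33789557 (1 of 6 reads at 16 bp) and at 158696383 (1 of 6 reads at 47 bp) and on chromosome 6 at 93174182 (0 of 5 reads at 54 bp). Neighbours with fewer than 5 reads are not counted here. Some of those had 0 methylated reads, such as 0 of 4 beside the CpG on chromosome 16 at 12890769.

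Beyond 100 bp the lower level faded with distance. From 100 to 150 bp, the pooled level was 77.0% around unmethylated lone CpGs (71.7 to 81.7) and 92.3% around methylated ones (92.1 to 92.5). From 150 to 200 bp it was 84.7% (79.6 to 88.8), against 93.0% (92.8 to 93.2), and from 500 to 1000 bp 91.0% (89.8 to 92.0), against 91.7% (91.7 to 91.8). The pooled level over 100 to 1000 bp was part of the selection, but its course with distance within that range was not.

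Distances beyond 1000 bp were not used in the selection. From 1000 to 2000 bp, 81.2% of reads were methylated around unmethylated lone CpGs (80.1 to 82.3) and 84.5% around methylated ones (84.4 to 84.5). A single CpG, that on chromosome 12 at 113962668 with 36 of 219 reads methylated at this distance, decides most of the gap, and without it the level was 84.3%. From 2000 to 5000 bp the levels were 70.2% (69.5 to 70.9), against 76.1%, and without the CpG on chromosome 11 at 54676505, whose DNA at this distance had 73 of 882 reads methylated, the level around unmethylated lone CpGs was 73.6%. From 5000 to 10000 bp they were 73.9%, against 75.1%, and without the CpG on chromosome 1 at 182650575 the level around unmethylated lone CpGs was 75.4%.

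Counted per lone CpG, DNA beyond 1000 bp was often over 80% methylated in both sets. From 1000 to 2000 bp this held for 74.5% of 94 unmethylated lone CpGs with at least 10 reads there (64.8 to 82.2), against 83.3% of 26913 methylated ones (82.8 to 83.7). From 2000 to 5000 bp it held for 71.1% of 114 (62.1 to 78.6), against 80.8% (80.4 to 81.3). From 5000 to 10000 bp it held for 72.2% of 115 (63.4 to 79.5), against 78.6% (78.2 to 79.1), and there the intervals overlap. From 10 to 50 kb, the median level was 83.1% around unmethylated and 83.5% around methylated lone CpGs.

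**Figure D3:**
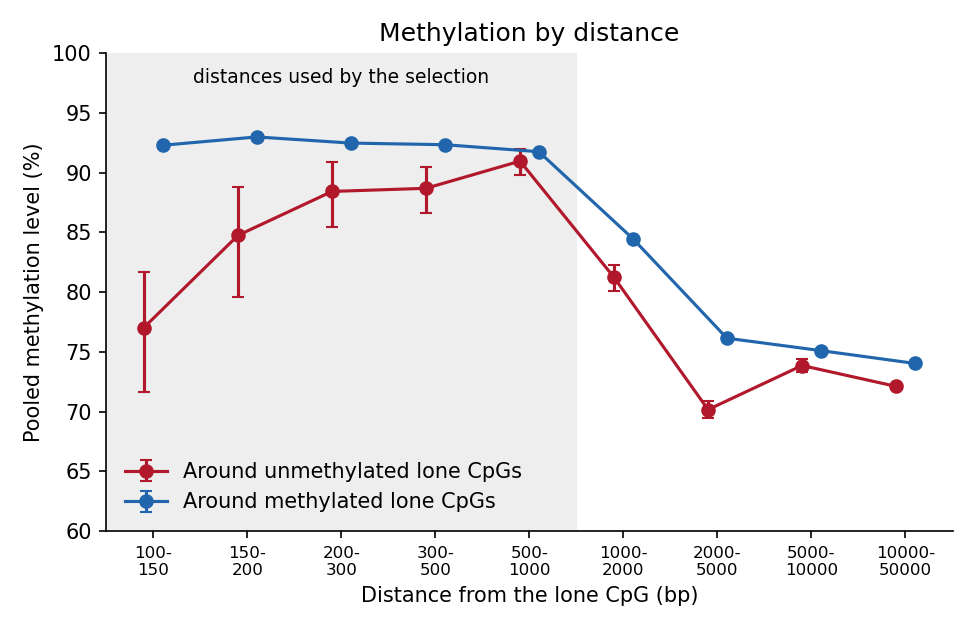
Pooled methylation level of listed CpGs of up to 19 reads (vertical axis, percent, from 60%) by distance from the lone CpG (horizontal axis, bp, in unequal steps), around the 115 unmethylated (red) and the 28771 methylated (blue) lone CpGs; bars are 95% Wilson intervals and the shaded distances were used by the selection. The red level is 77.0% at 100 to 150 bp and 91.0% at 500 to 1000 bp, where the blue one is 92.3% and 91.7%; both are lower beyond 1000 bp, outside the distances required to be methylated.

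Closeness to longer stretches of low methylation was counted with stretches built from CpGs of 5 or more reads and of 10 or more reads. Such a stretch is a run of at least 4 CpGs of 5 or more reads with no gap over 500 bp, in which the level averaged over 3 successive CpGs stays under 50%; there were 28849 on the autosomes. Within 10 kb of one lay 24 of the 115 unmethylated lone CpGs (20.9%, 14.4 to 29.2), against 19.5% of the methylated ones (19.1 to 20), a difference of 1.36 percentage points (-5.08 to 9.68). No unmethylated lone CpG lay inside a stretch or within 1000 bp of one (0 of 115, which allows a share of up to 2.61% by a limit of 3 counts and 3.23% by the Wilson interval), which the methylated surroundings asked for make unlikely from the start. Their median distance to the nearest stretch was 46162 bp, against 36546 bp for methylated lone CpGs. With stretches built from CpGs of 10 or more reads, of which there were 10897, 13.0% of the unmethylated lone CpGs lay within 10 kb of one (8.07 to 20.4), against 7.92% (7.61 to 8.24), a difference of 5.13 percentage points (0.139 to 12.5). This difference lies inside the interval of the first one, so the values do not tell the settings apart.

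Coverage of the surroundings was low around both sets. Over CpGs of up to 19 reads there were 3.23 reads per listed CpG around unmethylated lone CpGs and 3.36 around methylated ones, a ratio of 0.962 (0.935 to 0.991). With all listed CpGs counted the order turned, with 3.59 and 3.40 reads and a ratio of 1.06. The median over lone CpGs was 3.11 reads per listed CpG around unmethylated and 3.17 around methylated ones. The number of listed CpGs in the surroundings had a median of 11 in both sets. A lone CpG's own depth was a median of 3.86 times the mean of its surroundings for unmethylated and 3.46 times for methylated lone CpGs; both are high because lone CpGs were chosen for 10 or more reads.

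CpGs of very high coverage were found near both sets, with intervals that do not overlap. A CpG of 20 or more reads lay within 1000 bp of 5 of the 115 (4.35%, 1.87 to 9.78), against 0.64% of the methylated lone CpGs (0.554 to 0.738). These 5 lie on chromosome 1 at 90147468, chromosome 3 at 25429370, chromosome 5 at 15006767, chromosome 10 at 57689516 and chromosome 12 at 88890826, and are named because they are so few. The surroundings of the CpG on chromosome 10 averaged 22.5 reads per listed CpG and those of the CpG on chromosome 5 20.3 reads, while the quartiles over all 115 were 2.6 and 3.77 reads. Without lone CpGs near such coverage, 110 unmethylated lone CpGs were left, 0.301% of the lone CpGs.

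The unmethylated share was higher at 15 to 19 reads than at 10 to 14 reads, beyond the counting intervals. Among lone CpGs with 10 to 14 reads, 97 of 35113 were unmethylated (0.276%, 0.227 to 0.337), and among those with 15 to 19 reads 18 of 1722 (1.05%, 0.662 to 1.65). At exactly 10 reads the share was 0.122%, where at most 1 methylated read is allowed, and at 19 reads it was 4.67% (2.01 to 10.5), where 3 are allowed. Counting only CpGs with 0 methylated reads, for which this allowance plays no part, the shares were 0.0598% at 10 to 14 reads (0.0391 to 0.0914) and 0.407% at 15 to 19 reads (0.197 to 0.837).

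The rise from 10 to 19 reads went on beyond the depths of the selection. Among lone CpGs in methylated surroundings with 20 to 29 reads, 16 of 260 were unmethylated (6.15%, 3.82 to 9.76), and among those with 30 to 49 reads 19 of 106 (17.9%, 11.8 to 26.3). With 50 or more reads it was 13 of 84 (15.5%, 9.27 to 24.7). The methylated share was 78.7% at 15 to 19 reads and 45.3% at 30 to 49 reads. Depth and copy number of the DNA cannot be told apart in this table.

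**Figure D4:**
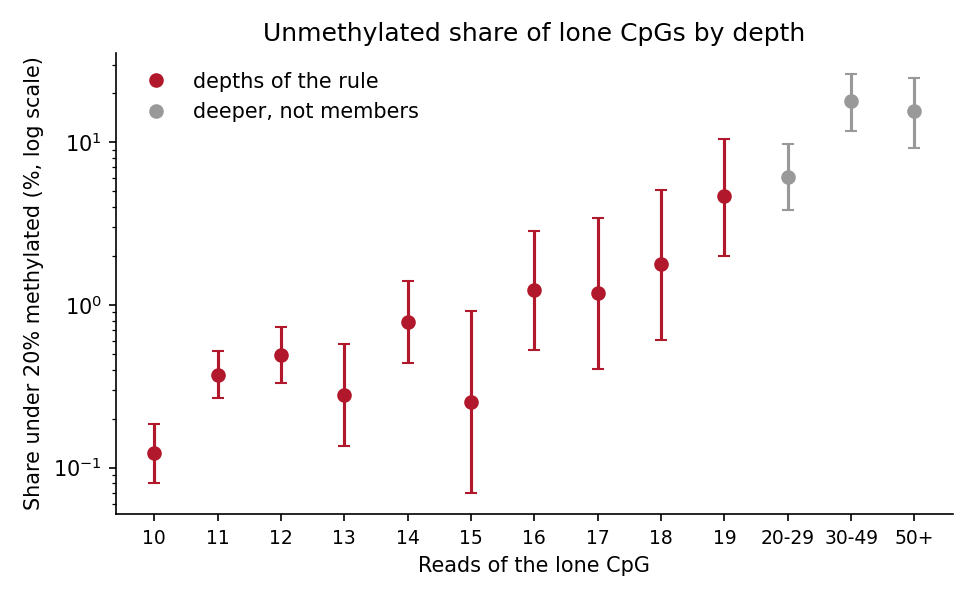
Share of lone CpGs in methylated surroundings that are under 20% methylated (vertical axis, percent, log scale) by the reads of the lone CpG (horizontal axis), with 95% Wilson intervals. Red points are the depths of the selection, between 0.122% at 10 reads and 4.67% at 19, and grey points are deeper lone CpGs, at 6.15% to 17.9%.

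Subsets of the unmethylated lone CpGs had intervals that overlap. Those with no other listed CpG within 100 bp had 0 methylated reads in 18 of 52 cases (34.6%, 23.2 to 48.2), and those with another listed CpG in 10 of 63 cases (15.9%, 8.86 to 26.8). Of the 18 with 15 or more reads, 7 had 0 methylated reads (38.9%, 20.3 to 61.4), and of the 97 with fewer reads, 21 (21.6%, 14.6 to 30.8). The 28 with 0 methylated reads had neighbours at 59.0% (48.3 to 69.0, 10 neighbours of up to 19 reads), and the 87 with 1 to 3 methylated reads had neighbours at 52.9% (47.2 to 58.6, 51 neighbours), intervals that overlap. The median level of the surroundings was 86.6% around the 28 and 90% around the 87.

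Lone CpGs without any other listed CpG within 100 bp made up 45.2% of the unmethylated (36.4 to 54.3) and 39.8% of the methylated lone CpGs (39.2 to 40.4). Since CpGs without reads are not in the table, a CpG that looks alone may have unlisted ones beside it. The unmethylated share was 0.345% among lone CpGs with no other listed CpG and 0.29% among those with 1 other.

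The 115 were spread over all 19 autosomes. Chromosome 1 held the most, 13, followed by chromosome 8 with 12 and chromosome 7 with 10, and chromosome 17 held the fewest, with 1. As a share of each chromosome's lone CpGs the values ran between 0.0651% on chromosome 17 and 0.596% on chromosome 8, with a median of 0.311%. For 18 of the 19 the interval held the share over all autosomes, the exception being chromosome 8 (0.341 to 1.04).

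**Figure D5:**
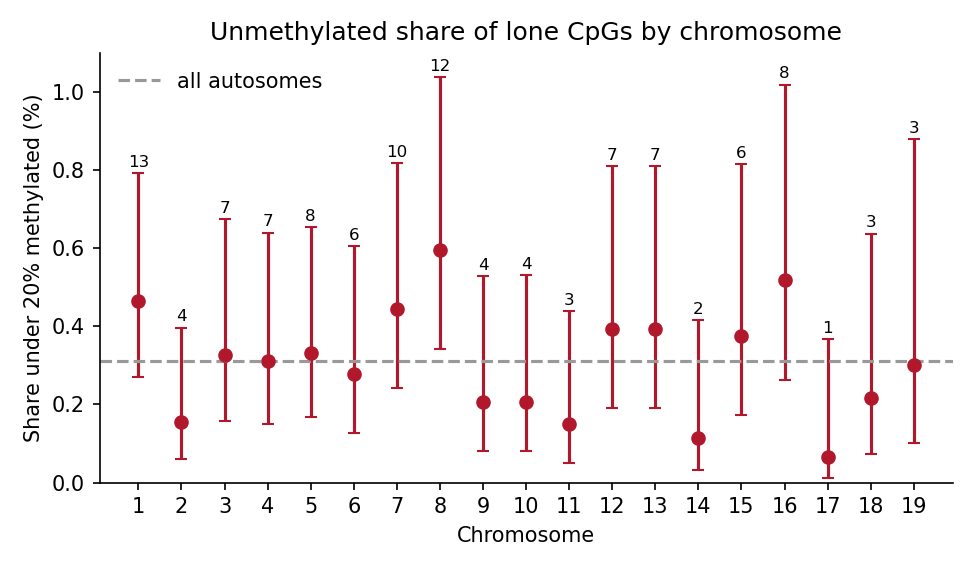
Share of lone CpGs in methylated surroundings that are under 20% methylated (vertical axis, percent) on each of the 19 autosomes (horizontal axis), with 95% Wilson intervals and the number of unmethylated lone CpGs above each. The dashed line is the share over all autosomes, 0.312%; the shares run between 0.0651% on chromosome 17 and 0.596% on chromosome 8.

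No 2 of them lay within 10 kb of each other (0 of 115, with the same limits of 2.61% and 3.23%), and the closest pair, on chromosome 1, was 43898 bp apart. That pair lies at 90147468 and 90191366, with 1 of 10 and 2 of 12 reads methylated. An unmethylated lone CpG lay within 10 kb of only 0.143% of the methylated ones (0.105 to 0.193). With so low a share, the count of 0 cannot tell whether the 115 come in groups. Within 100 kb of another lay 4 of the 115 (3.48%, 1.36 to 8.6), and an unmethylated lone CpG lay within 100 kb of 1.09% of the methylated ones (0.974 to 1.21). At 100 kb the intervals do not overlap, but the higher share rests on 4 CpGs. They are the pair named above and the CpGs on chromosome 3 at 105277509 and 105355074. Each pair is counted from both sides, so the interval of this share is too narrow to tell whether the 115 come in groups. Within 3 Mb of the first or last listed CpG of a chromosome lay 5.22% of the unmethylated (2.41 to 10.9) and 4.79% of the methylated lone CpGs (4.55 to 5.04).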

How the data were processed

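Methylation was measured in 1 bisulfite library of MNase-released sperm DNA. Per the file headers, each CpG has a count of total reads and a count of methylated ones; these are raw counts that the authors did not normalize as far as the table tells. Bowtie and mm9 are named in the submitters' processing notes. How reads were trimmed and how duplicates or reads of several places were handled is not given in the sources used here, nor is the conversion rate. On the autosomes 15119333 CpGs carry 59869498 reads (median 3); 1.92% of CpGs had 10 to 19 reads.

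CpGs were selected as the report states, and all windows were counted over listed CpGs. The planned description of sequences was not run, since no genome on mm9 was used. The members and the settings were chosen with earlier results of these data known. CpGs named in the text are the 10 with the most reads among those with 0 methylated reads, the 5 with the most reads in surroundings over 95%, and the 5 with the highest level of a neighbour of 10 or more reads; chromosome 18 was used in none of these lists, by a choice that does not rest on its values, which leaves out 1 CpG of the second list. Groups within 10 kb were to be named too, and there were none. CpGs named as extremes, or because they decide a value, were chosen with their values known. Calculations used Python 3.11.15, numpy 2.4.6 and pandas 2.3.3, with figures by matplotlib 3.10.9, and were tested on simulated reads.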

Additional observations from a re-analysis of the deposited data

How the results depend on the processing

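No paired analysis was possible because there is 1 library. Among 41 alternative values, 13 lay inside the main value's interval (numbers of CpGs: within 1.5 times), 27 lay outside it and 1 reversed; the cause was not tested except where the setting itself takes fewer CpGs. The 115 unmethylated lone CpGs (0.312%) became 18 (1.05%) at 15 to 19 reads, 2253 at 5 to 9 reads, 48 (10.7%) at 20 or more reads, 65 (0.176%) under 10% methylated, 28 (0.076%) with 0 methylated reads, 55 (0.235%) with surroundings over 90%, 52 with no other listed CpG within 100 bp, 42 (0.375%) with a radius of 250 bp and 3 (5.26%, of 57 lone CpGs) on the X chromosome; with surroundings up to 2000 bp the share was 0.403%. The neighbour's level, -30.1 percentage points relative to methylated lone CpGs with all neighbours, was -24.5 for lone CpGs of 15 to 19 reads, -39.6 for those under 10% and over 90%, -40.4 as a mean of levels and -38.4 without neighbours of 20 or more reads, a setting chosen after seeing the data. The level from 1000 to 2000 bp, -3.24 percentage points, was -5.98 from 2000 to 5000 bp, -1.24 from 5000 to 10000 bp, -6.64 with surroundings over 90% and of 20 or more reads, and -0.154 without the 1 CpG that moves it most, also chosen after seeing the data. The coverage ratio of the surroundings, 0.962, was 1.06 with all listed CpGs, a reversal, and 0.804 for lone CpGs of 15 to 19 reads. The share with another unmethylated lone CpG nearby was 3.48% at 100 kb in place of 0. Depth limits single levels, since the interval of a CpG on chromosome 1 at 114167509, with 2 of 11 reads methylated, reaches up to 47.7%.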
